A study of Mus musculus with 24 samples.

Results

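The cytochrome P450 genes described here are the mouse genes whose array name has the form Cyp, family number, subfamily letter and gene number. The bile acid enzymes Cyp7a1, Cyp7b1, Cyp8b1 and Cyp27a1 and the fatty acid hydroxylases Cyp4a10 and Cyp4a14 were left out by rule. Of the 88 genes that matched, 82 were therefore members, carried by 105 of 55681 probes and making up 82 of the 34844 gene names on the array. The study compared male C57BL/6 mice, 2 months old, that carried either the S714G mutant or the S714 control form of human PER1 (hPER1), a repressor protein of the circadian clock, so that control animals carried a human PER1 allele as well. Liver and white adipose tissue were taken after 10 days of light and dark cycles at zeitgeber time (ZT) 13, just after lights off, and at ZT1, just after lights on. That gave 8 groups of 3 samples, listed with the mutant before the control: liver at ZT13, liver at ZT1, adipose at ZT13 and adipose at ZT1. The promoter that drives the human allele and the state of the mouse's own Per1 are not given in the sources used here, and the probes, designed for mouse transcripts, do not check the S714G change. The design text calls the samples of a group independent repeats without tying each to an animal. The p-values below thus judge differences against the spread between these samples, which may not be the spread between animals.

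Cytochrome P450 enzymes are haem proteins of the endoplasmic reticulum or mitochondria that insert oxygen into drugs, steroids, fatty acids and vitamins. Those of the endoplasmic reticulum take their electrons from P450 oxidoreductase (Por). The liver carries most of the drug-metabolising enzymes of the Cyp2c, Cyp2d and Cyp3a subfamilies, and several are known to follow the time of day through the clock-driven PAR bZIP activators Dbp, Tef and Hlf, which bind a sequence called the D-box, and through the repressor Nfil3, which binds the same sequence. Ligand-activated factors set others: the aryl hydrocarbon receptor drives the Cyp1 genes, and the receptors CAR and PXR drive Cyp2b10 and Cyp3a11.

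Each array gives 1 brightness per probe from Cy3-labelled RNA. Values below are log2 of the processed signal minus the log2 of the 75th percentile of that array, so a value of 0 lies at the 75th percentile and a difference of 1 is a doubling. Each gene is read through its brightest probe, and levels are compared between samples and never between genes. The probes of the genes that changed at ZT13 in liver are shown first because each gene is read through 1 stretch of 60 bases, given on mm9 coordinates as deposited. The Cyp2g1 probe lies at chr7:27606111-27606170 on the plus strand and the Cyp4f39 probe at chr17:32629616-32629675 on the plus strand.
Cyp2g1: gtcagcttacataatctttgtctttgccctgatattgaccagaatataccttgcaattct
Cyp4f39: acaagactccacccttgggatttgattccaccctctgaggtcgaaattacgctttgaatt

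Close relatives limit what a probe of this family can name. The Cyp2a4 probe at chr7:27099880-27099939, plus strand, shared 50 of 52 aligned bases with an array probe that carries no gene name at chr7:27737339-27737398, plus strand. The Cyp2c67 probe at chr19:39683429-39683488, minus strand, shared 53 of 56 aligned bases with the Cyp2c68 probe at chr19:39763420-39763479, minus strand. Both pairs are printed with the differing bases in capitals, because signals of such transcripts can mix.
Cyp2a4: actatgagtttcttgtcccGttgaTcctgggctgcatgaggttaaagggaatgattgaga
Unnamed probe: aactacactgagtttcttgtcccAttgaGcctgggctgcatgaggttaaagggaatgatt
Cyp2c67: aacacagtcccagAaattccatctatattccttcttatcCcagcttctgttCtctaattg
Cyp2c68: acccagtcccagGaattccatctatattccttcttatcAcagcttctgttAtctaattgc
Of the 82 members, 6 had a probe with at least 40 identical bases in a probe of another name, and 4 of these had at least 50 (Cyp2c67, Cyp2c68, Cyp2a4 and Cyp4f18). The Cyp2a4 and Cyp2c67 values are uncertain to that extent. The Cyp2u1 probe holds a run of GT repeats and shared 35 of 35 aligned bases with an Ldlrad3 probe, so its values carry a like limit.

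Promoters were searched for 4 motifs on both strands in RefSeq's 300-base windows (250 bases before the start to 50 after it, GRCm38.p6), which covered 65 of the member genes. Cyp2g1 and Cyp39a1 had no window and were not searched. The D-box TTANGTAA stood in 1 of the 65 (Cyp2c38), against 2.32% of 32851 promoters, and the E-box CACGTG in 2 (Cyp2j6 and Cyp4v3), against 7.15%. The RORE core TAGGTCA stood in 1 (Cyp3a11; 2.61% of promoters) and the aryl hydrocarbon receptor core TNGCGTG in 1 (Cyp2c68; 5.07%). The windows of Cyp2j6 (chr4:96553602-96553901, minus strand) and Cyp4v3 (chr8:45333114-45333413, minus strand) are printed with the E-box in capitals, since both genes had calls in the liver test of daily changes, which neither kept with slide in the fit. A match describes the letters of the window and is not a site of binding.
Cyp2j6: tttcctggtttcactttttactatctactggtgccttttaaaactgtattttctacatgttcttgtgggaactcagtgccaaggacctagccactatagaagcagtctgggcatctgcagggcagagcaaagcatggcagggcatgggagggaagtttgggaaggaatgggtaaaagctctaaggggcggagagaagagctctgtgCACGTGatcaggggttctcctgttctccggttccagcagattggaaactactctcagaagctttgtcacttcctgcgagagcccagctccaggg
Cyp4v3: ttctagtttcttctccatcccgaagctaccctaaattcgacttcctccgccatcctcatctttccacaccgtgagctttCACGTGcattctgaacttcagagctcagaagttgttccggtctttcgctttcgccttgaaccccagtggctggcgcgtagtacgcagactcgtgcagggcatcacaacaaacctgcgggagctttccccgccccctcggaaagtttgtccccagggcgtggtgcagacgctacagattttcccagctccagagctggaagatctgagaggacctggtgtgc

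A gene entered the tests of a tissue if 1 or more of its 4 groups there had all 3 arrays well above background. In liver 69 of the 82 members passed, and 62 were above background on all 12 liver arrays. The steroid synthesis genes Cyp11a1, Cyp11b1, Cyp11b2 and Cyp19a1, the vitamin D genes Cyp24a1 and Cyp27b1, and Cyp26c1, Cyp2ab1, Cyp2b13, Cyp2c65, Cyp2c66, Cyp2t4 and Cyp4x1 were not tested in liver. In white adipose 58 passed, 32 of them above background on all 12 adipose arrays, and 5 members were above background on no array. For a gene that passed only through the group where it is bright, the filter favours a call. Counts below are over tested members, which does not remove this. In liver 5 members entered through 1 group only: Cyp4f39, Cyp3a44, Cyp1b1 and Cyp46a1 through the mutant at ZT13, and Cyp2w1 through the mutant at ZT1. Across the 24 arrays 45.5% to 71.2% of spots were well above background, and the 75th percentile ran between 376 and 1808 intensity units. The liver carried its own markers, with a mean log2 level of 13 hepatocyte genes between 6.68 and 7.44. The adipose samples carried 8 adipocyte genes at 5.55 to 6.09, against -1.76 to -1.17 in liver.

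The arrays lay on 3 slides of 8, and the slides cut across the groups unevenly. All liver control ZT1 arrays were on slide 1 and all liver mutant ZT1 arrays on slide 2, so slide and genotype cannot be told apart in liver at ZT1. At ZT13 slide 3 held the 3 liver mutant arrays and 2 of the 3 liver controls, so that comparison can be made within a slide. In adipose the ZT13 groups lay on different slides, while slide 1 held 2 mutant and 3 control ZT1 arrays. The first liver control array at ZT1 stood apart: of the 69 members it gave the highest liver value for 20 and the lowest for 23, and its median member level was 2.62, against 3.61 to 4.30 on the other 11 liver arrays.

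In mutant liver at ZT13, 1 P450 gene was called higher and 1 lower than in control liver. Cyp2g1, a steroid-hydroxylating enzyme known from the olfactory mucosa, fell, and Cyp4f39, the mouse counterpart of the human skin enzyme CYP4F22 that hydroxylates very long fatty acids for ceramides, rose. The 2 calls are 2.9% of the 69 members tested, against 3.03% of all 21822 genes (1.51% higher and 1.52% lower), so the share of members was close to that of the array. Cyp4f39 entered the test only through the group in which it was called higher, so its call was favoured by the filter, and Cyp2g1 is the 1 call of a gene above background on every liver array. The median member difference was 0.04, and that of all genes was 0.02. In 61 of 69 members the difference was under 0.5, and in 54 it was under 0.25.

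Cyp2g1 read -2.72, -2.34 and -2.43 in mutant liver at ZT13, against 0.00, 0.14 and 0.61 in control liver. Every mutant value lay below every control value by more than the spread of either group. The mean was -2.50 ± 0.199 in the mutant and 0.25 ± 0.318 in the control (SD, n = 3 each), a difference of -2.75 ± 0.363 (SE), 6.72-fold lower, with limma's moderated test at an adjusted p of 0.00236 over all genes. Within slide 3 alone it was -2.87 with an adjusted p of 0.00666, and leaving out each liver array in turn gave -2.87 to -2.57, past the threshold each time.

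Cyp4f39 read -3.53, -4.22 and -4.01 in mutant liver at ZT13, against -5.69, -5.90 and -6.73 in control liver. Only the 3 mutant arrays of ZT13, among the 12 liver arrays, had a signal well above background, so the control has a bound and no level. Cyp4f39 was at least 1.42-fold higher in the mutant, setting its mean against the dimmest signal that counts as above background. The measured means were -3.92 ± 0.356 and -6.11 ± 0.548 (SD, n = 3 each), the control mean being a background reading, so no size beyond the bound is given. Limma's adjusted p was 0.00296, with normexp background correction it was 0.0253, and within slide 3 alone it was 0.0257.

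**Figure D1:**
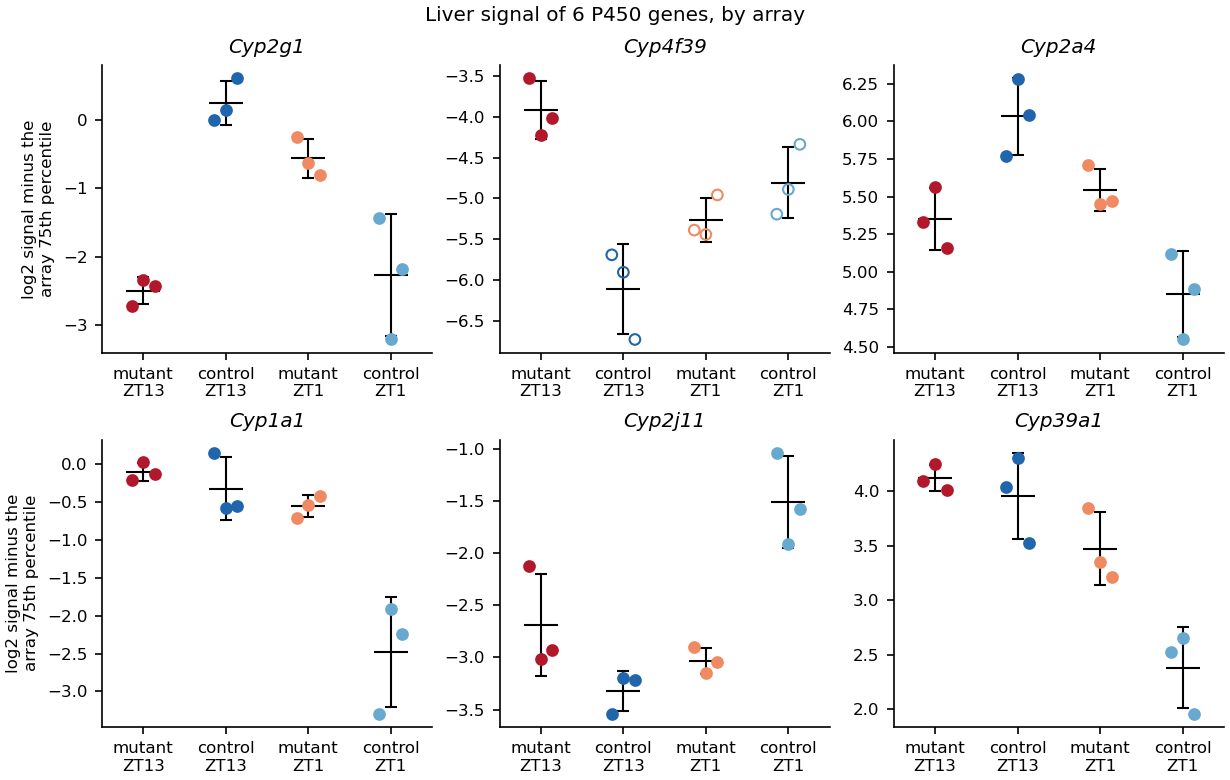
Log2 level relative to the 75th percentile of the array (y axis) of 6 P450 genes in liver, 1 panel per gene, with the mutant left of the control at ZT13 and at ZT1. Points are arrays (open where the probe was not well above background) and bars are the mean ± SD of 3 arrays. Cyp2g1 is low in the ZT13 mutant and the ZT1 control, and Cyp4f39 has filled points only in the ZT13 mutant.

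Cyp2a4, a testosterone hydroxylase that is more abundant in female liver, came nearest to the threshold among the other genes with a lower mean. It read 5.33, 5.56 and 5.16 in mutant liver at ZT13, against 5.77, 6.28 and 6.04 in control liver, with no overlap. The difference of -0.68 ± 0.192 had an adjusted p of 0.0886 by limma and did not pass; quantile scaling gave 0.0423, and leaving out the first liver control array of ZT1 gave 0.0467. A second Cyp2a4 probe read -0.73 (adjusted p = 0.197).

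The remaining genes with the lowest unadjusted p differed by less than 1 log2 unit. The leukotriene hydroxylase Cyp4f18 differed by 0.68 ± 0.214 (adjusted p = 0.128) and Cyp2j11 by 0.63 ± 0.264 (adjusted p = 0.282), both with limma. Cyp4f13 read 4.78, 4.86 and 4.76 in the mutant, against 5.02, 5.16 and 4.79 in the control, a difference of -0.19 ± 0.14 (adjusted p = 0.613), with overlap. None of these passed. Over the 69 members 5 had an unadjusted p under 0.05, against 3249 of all 21822 genes. Groups that did not overlap were found for 8 of 69 members, against 29.4% of all genes.

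The drug-metabolising subfamilies were close to level at ZT13. None of the 11 tested Cyp2c genes passed limma's test, with a median difference of 0.01 and a range of -0.21 to 0.32. The 9 Cyp2d genes had a median of 0.03 and a range of -0.10 to 0.25, and the 7 Cyp3a genes a median of -0.01 and a range of -0.20 to 0.39. Neither subfamily had a member past the threshold. The 6 Cyp2j genes, which include arachidonic acid epoxygenases, had a median of 0.04 with none called, and of the 8 Cyp4f genes 1 was higher, Cyp4f39, with a median of 0.12. Cyp3a11, the main inducible enzyme of the Cyp3a group, read 7.63, 7.44 and 6.88 in the mutant, against 6.88, 7.76 and 7.50 in the control. The groups overlapped, with a difference of -0.07.

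Clock-linked regulators changed at ZT13, while neither of the members listed as their targets passed. Among 18 listed regulators of P450 genes 1 was higher and 2 were lower, with a median of -0.23. Of all genes 1.51% were higher and 1.52% lower. The D-box activator Dbp read 2.39, 2.06 and 2.15 in mutant liver at ZT13, against 5.59, 5.97 and 5.83 in control liver, a difference of -3.59 ± 0.166 (adjusted p = 1.48e-06 by limma). Tef was lower by -1.53 ± 0.142 (adjusted p = 2.91e-04), and the D-box repressor Nfil3 was higher by 1.34 ± 0.227 (adjusted p = 0.00888). Hlf, the remaining PAR bZIP gene, had -0.77 and did not pass (adjusted p = 0.178). Genes listed as dependent on these activators were Cyp2a4 and Cyp2b10, and neither passed at ZT13; Cyp2b10 read -1.33, 0.80 and -0.54 in the mutant, against -0.80, -0.91 and 0.00 in the control.

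The receptor-driven groups had no call at ZT13. The 7 genes responsive to CAR or PXR had a median of 0.01, and the receptors themselves, Nr1i3 at -0.23 and Nr1i2 at 0.20, did not pass limma's test at that time. The 3 aryl hydrocarbon receptor targets had a median of 0.23: Cyp1a1 differed by 0.23, Cyp1b1 by 0.69 (above background on 1 of 3 control arrays) and the caffeine-oxidising Cyp1a2 by -0.11. The retinoic acid hydroxylases Cyp26a1 and Cyp26b1 had a median of 0.02, and the vitamin D hydroxylase Cyp2r1 differed by -0.02. Of 7 listed partner genes of the P450 system 2 were lower and none higher, against 1.52% of all genes lower and 1.51% higher. Por gives electrons to the enzymes of the endoplasmic reticulum. It read 3.68, 4.06 and 3.80 in the mutant, against 4.99, 5.50 and 5.23 in the control (difference -1.40 ± 0.3, adjusted p = 0.0307). Alas1, the first enzyme of haem synthesis, read 5.05, 5.24 and 5.43, against 6.32, 6.28 and 6.46 (difference -1.11 ± 0.193, adjusted p = 0.0102).

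At ZT1, 12 P450 genes were higher and 11 lower in mutant liver than in control liver. The 23 calls are 33.3% of 69 members, against 45.3% of all genes (17.7% higher and 27.5% lower), and the median member difference was -0.04, against -0.17 for all genes. Groups that did not overlap were found for 27 of 69 members, against 52.3% of all genes. Slide and genotype cannot be told apart here. With slide as a term in the fit, fixed or random, no member passed limma's test. Those fits took in the 24 arrays of both tissues, which without slide already gave fewer calls than the 23. A fixed slide term also raised the median SE of this comparison from 0.301 to 0.478. The part that slide has in the lost calls was not tested. As a fixed term, slide turned the sign for Cyp1a1 (-1.67), Cyp2a22 (2.18), Cyp2j6 (-0.57), Cyp4b1 (0.43), Cyp4f15 (-0.055) and Cyp4v3 (-0.30). The step between slides 1 and 2 in that fit came from the adipose mutant ZT1 arrays alone. Hepatocyte markers in the second of these arrays had a mean of -3.72. Cyp1a1, Cyp2a22 and Cyp4f15 were not above background on all of them. The turned signs thus rest on adipose values and cannot separate slide from genotype in liver. Leaving out the first liver control array gave 16 calls, the second 27 and the third 20. Values at ZT1 therefore describe these arrays and carry that limit throughout.

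Among genes higher at ZT1, Cyp1a1 read -0.71, -0.53 and -0.42 in mutant liver, against -3.29, -1.91 and -2.24 in control liver. The groups did not overlap, with a difference of 1.93 ± 0.314 (3.80-fold, adjusted p = 8.6e-04 by limma) and the controls as the low samples. The mutant values were near those of both genotypes at ZT13. The steroid enzyme Cyp17a1 read 3.99, 3.02 and 2.76, against 1.93, 0.62 and 1.36, a difference of 1.95 ± 0.463 (adjusted p = 0.00635). The oxysterol hydroxylase Cyp39a1 read 3.85, 3.36 and 3.21, against 2.52, 2.66 and 1.96, a difference of 1.09 ± 0.249 (adjusted p = 0.00517). Neither gene's groups overlapped. Cyp2g1, low in the mutant at ZT13, was higher at ZT1: -0.25, -0.63 and -0.81, against -1.43, -3.21 and -2.18, a difference of 1.71 ± 0.363 (adjusted p = 0.0036).

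The other genes higher at ZT1 were spread over subfamilies. Cyp3a13 differed by 1.27 ± 0.278 (adjusted p = 0.00422), Cyp2j6 by 1.08 ± 0.177 (adjusted p = 9.02e-04) and Cyp4f15 by 1.06 ± 0.314 (adjusted p = 0.0183). Without the second mutant array of ZT1, Cyp4f15 missed the threshold at 0.98 (adjusted p = 0.0605). Cyp4v3, counterpart of the human fatty acid hydroxylase CYP4V2, differed by 0.77 ± 0.199 (adjusted p = 0.00955). Smaller differences were those of Cyp2c55 (0.86), Cyp2a4 (0.69), Cyp4f14 (0.63) and Cyp20a1 (0.62).

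Genes lower at ZT1 were led by Cyp2b9, a female-predominant enzyme, at -1.36, -2.47 and -2.21 in mutant liver, against 1.15, -0.56 and -0.03 in control liver. The difference was -2.20 ± 0.669 (adjusted p = 0.0202 by limma), and without the first control array it was -1.72 (adjusted p = 0.0833). Cyp2j11 read -2.90, -3.15 and -3.05, against -1.04, -1.91 and -1.58, a difference of -1.53 ± 0.264 (adjusted p = 0.0012), with no overlap. Cyp3a44 is counted among the 11 lower genes (adjusted p = 0.0186), but it was above background on no mutant array and on 1 control array, so the call compares background readings and no size is given. The retinoic acid hydroxylase Cyp26b1 differed by -1.03 ± 0.36 (adjusted p = 0.0361), while Cyp26a1 at -1.55 ± 0.594 missed the threshold (adjusted p = 0.0514).

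In the Cyp2d subfamily 4 of 9 genes were lower at ZT1 and none higher, against 27.5% of all genes lower, with a median of -0.43. Cyp2d9, a male-specific steroid hydroxylase, read 7.41, 7.16 and 7.13 in the mutant, against 8.39, 7.46 and 8.03 in the control, a difference of -0.73 ± 0.267 (adjusted p = 0.0447). Cyp2d10 differed by -0.75 ± 0.211 (adjusted p = 0.0139), Cyp2d26 by -0.64 (adjusted p = 0.0116) and Cyp2d40 by -0.57 (adjusted p = 0.0408). Cyp2d9 lost its call without any 1 of 9 of the 12 liver arrays; without the first control array it was -0.51 (adjusted p = 0.153). Read through their brightest probes, 1 of 11 Cyp2c genes was higher, with a median of 0.14. Among 7 Cyp3a genes 1 was higher and 2 lower, with a median of -0.04.

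Genes at the edge of the threshold at ZT1 depended on single arrays. Cyp4b1, at -0.67 ± 0.238 (adjusted p = 0.0382), missed the threshold without any 1 of 7 arrays, with -0.53 (adjusted p = 0.119) without the first control array. Cyp2a22, at -0.87 ± 0.281 (adjusted p = 0.026), lost its call without 3, as with -0.61 (adjusted p = 0.0945) without the first control array. For Cyp26b1 the loss came without 3, with -0.73 (adjusted p = 0.115) without the second control array. Without 2 arrays in turn Cyp3a44 lost its call, with an adjusted p of 0.0551 without the second control array. Cyp3a25 completes the genes that were lower, at -0.62 (adjusted p = 0.0176).

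Of the role lists at ZT1, the 6 female-biased genes had 3 higher (Cyp17a1, Cyp39a1 and Cyp2a4) and 2 lower (Cyp2b9 and Cyp3a44, with Cyp3a44 read near background), so the list had no common direction. The 3 male-biased genes, which include 2 Cyp4a12 genes outside the members, had 2 lower and none higher, with a median of -0.66. The 7 genes responsive to CAR or PXR had 1 higher, Cyp2c55, with a median of 0.16. Of the 18 regulators 4 were higher and 5 lower, Dbp at 3.20 and Nfil3 at -2.46 with the opposite direction to ZT13. Among all genes 17.7% were higher and 27.5% lower at ZT1, so the counts of these small lists are not read as results about them. Alas1 was higher by 0.84 (adjusted p = 0.00542), and the haem-binding P450 partner Pgrmc1 was lower by -0.70 (adjusted p = 0.0116).

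The 15 genes with more than 1 tested probe gave a check of the ZT1 values within the array. The gap is the highest minus the lowest genotype difference among the probes of a gene. At ZT13 its median was 0.21 and its largest value 0.54 (Cyp2c37), and none of 18 second probes was called by limma. At ZT1 the median gap was 1.03, 8 genes had a gap over 1, and 9 of 15 had probes of opposite sign. Limma called 8 of the 18 second probes at ZT1, against 3 of the 15 brightest probes and 45.3% of all genes. In control liver between the times it called 10 of the 18 second probes, against 3 of the 15 brightest probes and 51.1% of all genes. The counts of members called in these 2 comparisons thus depend on which probe stands for a gene. Cyp2j6 was called both ways at ZT1: its brightest probe at chr4:96192532-96192591 gave 1.08, and the other at chr4:96183239-96183298, both minus strand, gave -0.82 (adjusted p = 0.0102). Cyp2u1, a fatty acid hydroxylase, gave -0.14, -0.35 and 1.97 from its 3 probes. The first of these is its brightest, which holds the GT repeats described above. The part that slide or array quality has in these gaps was not tested.

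**Figure D2:**
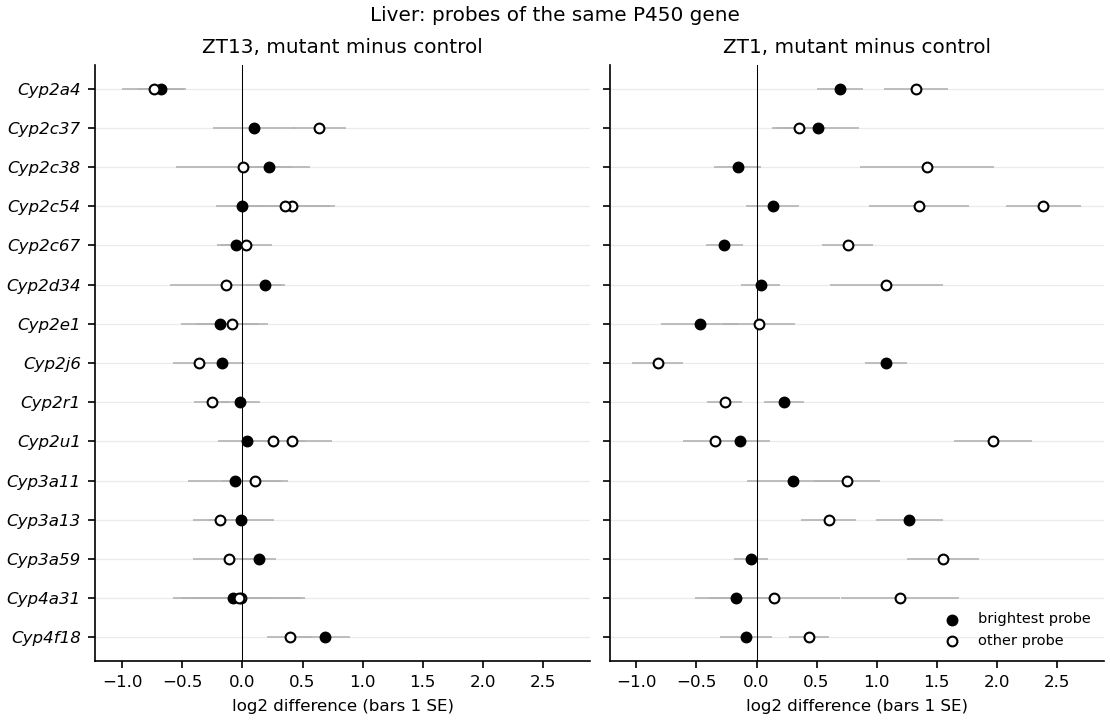
Genotype difference in liver, mutant minus control on the log2 scale, for each probe of the 15 P450 genes with several tested probes, at ZT13 (left) and ZT1 (right). Filled points are the brightest probe and open points the others. Probes of a gene lie close together at ZT13, where no gap exceeds 1, and apart at ZT1, where 8 genes have a gap over 1.

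Between the times, mutant liver had 1 gene higher and 1 lower at ZT13 than at ZT1, 2.9% of members against 1.98% of all genes (1.03% higher and 0.949% lower). Groups that did not overlap were found for 18 of 69 members, against 30.6% of all genes. Cyp2g1 differed by -1.94 ± 0.363 (adjusted p = 0.0216 by limma), with all 3 ZT13 values below all ZT1 values. Leaving out any 1 of the 6 mutant arrays ended the call, with adjusted p between 0.0625 and 0.0982. Cyp4f39 was at least 1.20-fold higher (adjusted p = 0.0498), since no ZT1 mutant array was above background, and 9 of 12 removals ended that call, with an adjusted p of 0.188 without the first mutant array of ZT13. The member median was 0.13, against 0.04 for all genes. The ZT1 mutant arrays lay on slide 2 and the ZT13 mutant arrays on slide 3, so slide and time cannot be told apart. Neither call held with slide as a fixed or random term (Cyp2g1 -2.31 with an adjusted p of 0.306, and -2.00 with an adjusted p of 0.183). Those fits took in the arrays of both tissues, which without slide also gave fewer calls than the liver fit.

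In control liver 11 genes were higher and 9 lower at ZT13 than at ZT1, 29% of members against 51.1% of all genes (21.2% higher and 30% lower). Groups that did not overlap were found for 23 of 69 members, against 55.1% of all genes. The ZT1 controls lay on 1 slide that held no ZT13 liver array, so slide and time cannot be told apart. Cyp2g1 differed by 2.52 ± 0.363 (adjusted p = 2.86e-04 by limma), Cyp1a1 by 2.16 ± 0.314 (adjusted p = 3.02e-04), Cyp39a1 by 1.58 ± 0.249 (adjusted p = 4.8e-04) and Cyp3a13 by 1.53 ± 0.278 (adjusted p = 0.00109). With slide as a fixed term Cyp1a1 turned to -0.96. The largest negative differences were those of Cyp2b9 (-2.17 ± 0.669), Cyp2j11 (-1.81 ± 0.264), Cyp26a1 (-1.76 ± 0.594) and Cyp4b1 (-1.37 ± 0.238). Cyp26a1 turned to 0.27 with slide as a fixed term, whose step between slides 1 and 2 came from adipose arrays alone. Without the first ZT1 control array Cyp26a1 was -1.09 (adjusted p = 0.113) and Cyp2b9 -1.69 (adjusted p = 0.0799), and without the second ZT13 control array they were -1.16 (adjusted p = 0.111) and -1.76 (adjusted p = 0.0717). The Cyp2g1 daily changes of mutant and control liver thus had opposite signs.

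The test of the difference between the daily changes, mutant minus control, called 4 genes positive and 7 negative, 15.9% of members against 31.2% of all genes (18.3% positive and 12.9% negative). Cyp2g1 had -4.46 ± 0.514 (adjusted p = 2.84e-04 by limma) and was the member with the largest value. It was also the only member called when slide entered as a fixed term (-3.86, adjusted p = 0.0368). That fit took in the arrays of both tissues, which without slide already gave fewer calls than the liver fit. It took its step between slides 1 and 2 from the adipose mutant ZT1 arrays alone. Cyp2g1 was above background on no adipose array, so its step was a background reading. Keeping the call therefore cannot decide the part of slide. With slide as a random term Cyp2g1 (-4.22, adjusted p = 0.00284) and Cyp4f39 (adjusted p = 0.045) were called. Cyp4f39 (adjusted p = 0.00181 without slide) was above background in 1 of the 4 liver groups, the one through which it entered the test, so no size is given. Cyp2j11 had 2.16 ± 0.373 (adjusted p = 0.00244), Cyp2a4 had -1.37 ± 0.271 (adjusted p = 0.00453) and Cyp2j6 had -1.25 ± 0.25 (adjusted p = 0.00493). The second Cyp2j6 probe gave 0.46 (adjusted p = 0.262), the opposite sign to its brightest probe. With slide as a fixed term the sign turned for Cyp1a1 (-1.70 without slide, 2.13 with it), Cyp2a4 (0.53) and Cyp2j5 (-0.68), and as a random term for Cyp1a1 (0.17). The calls of Cyp2j5, Cyp3a44 and Cyp4f15 ended without any 1 of 10, 8 and 8 of the 12 liver arrays; leaving out the first control array of ZT1 gave Cyp2j5 0.63 (adjusted p = 0.0638) and Cyp3a44, near background in 3 of the 4 groups, an adjusted p of 0.0501, and leaving out the second mutant array of ZT1 gave Cyp4f15 -1.29 (adjusted p = 0.0797). Over all removals the number of members called ran between 6 and 21.

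**Figure D3:**
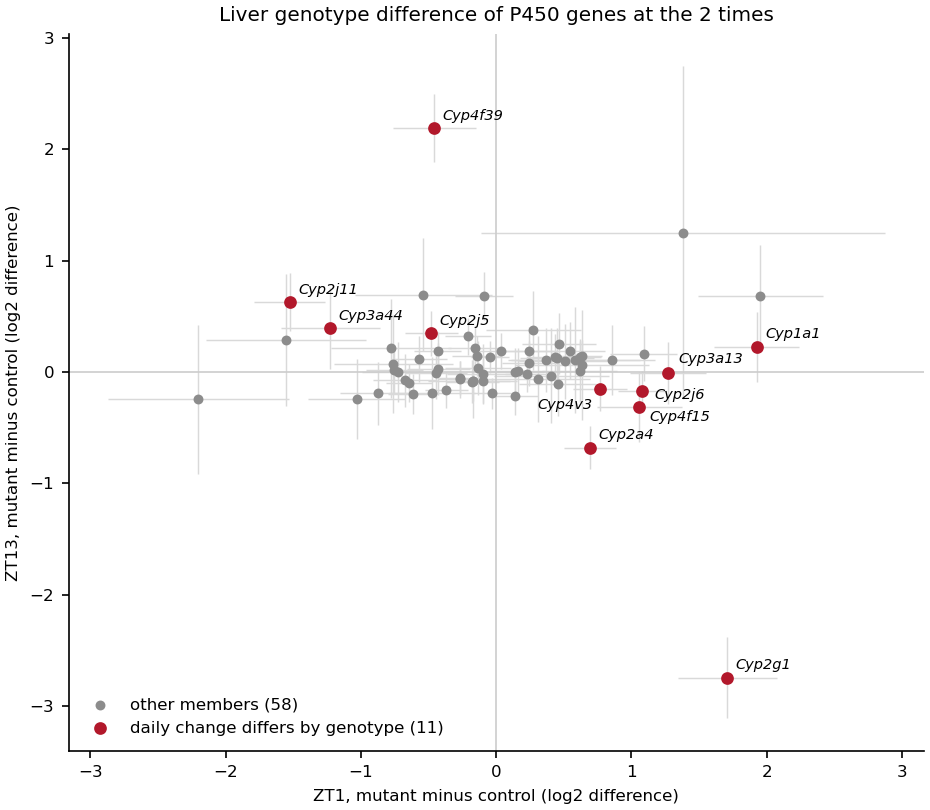
Genotype difference in liver, mutant minus control on the log2 scale, at ZT1 (x axis) and ZT13 (y axis) for 69 P450 genes, with bars of 1 SE. The 11 red, labelled genes passed the test of the difference between daily changes without slide in the fit; Cyp2g1 lies at 1.71 and -2.75, while most grey points lie near 0 on the y axis.

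Cyp2g1 sits in a cluster of Cyp2 genes on chromosome 7, which allows its neighbours to be read beside it. On mm9, 12 members have their probes between positions 26587495 and 27943565, in the order Cyp2s1, Cyp2b10, Cyp2b13, Cyp2b9, Cyp2a4, Cyp2b23, Cyp2b19, Cyp2g1, Cyp2a22, Cyp2a12, Cyp2f2 and Cyp2t4. The Cyp2b19 probe starts 48566 bases before that of Cyp2g1, and the Cyp2a22 probe 110539 bases after it. In liver at ZT13 Cyp2g1 alone of the 10 tested cluster members passed: Cyp2b19 differed by 0.19 (adjusted p = 0.799), Cyp2a22 by -0.19 (adjusted p = 0.859), Cyp2a12 by 0.14 and Cyp2f2 by -0.01. Cyp2b13 and Cyp2t4 were not tested. At ZT1 the cluster held calls in both directions, with Cyp2g1 and Cyp2a4 higher, and Cyp2b9 and Cyp2a22 lower.

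In white adipose no P450 gene passed between the genotypes at either time, while most members had a lower mean in the mutant. At ZT13 limma called none of 58 members, against 0.0428% of all 23368 genes (0.0171% higher and 0.0257% lower), and 2 members had an unadjusted p under 0.05, against 1124 of all genes. The median member difference was -0.86, against 0.06 for all genes, with 44 of 58 negative. At ZT1 limma called none of 58, against 0% of all genes, while 25 members had an unadjusted p under 0.05, against 1836 of 23368 genes, and the median was -1.76, against -0.02 for all genes. Groups that did not overlap at ZT1 were found for 9 of 58 members, against 6.79% of all genes. In whole tissue, fewer cells of a type and less RNA per cell cannot be told apart.

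Liver genes moved with these values. The mean log2 level of 13 hepatocyte markers in adipose was 0.49, 2.07 and 0.52 in mutant samples at ZT13, against 3.22, 1.08 and 3.11 in control samples, and 2.77, -3.72 and 1.96 in mutant samples at ZT1, against 3.18, 5.57 and 3.12 in control samples. All 4 groups thus carried hepatocyte transcripts, with 8 of the 13 markers above background even in the lowest sample. The sample with the most, the second ZT1 control, had the highest adipose value for 39 of 58 members (67.2%, against 10.2% of all genes). The sample with the least, the second ZT1 mutant, had the lowest value for 29 of 58 (50%, against 6.99% of all genes), and only 36 of 58 members were above background in it, against 54 to 58 elsewhere. Without these 2 samples the median difference at ZT1 was -0.36, with none called and 46 of 58 negative. The part that liver RNA has in the adipose values was not tested.

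**Figure D4:**
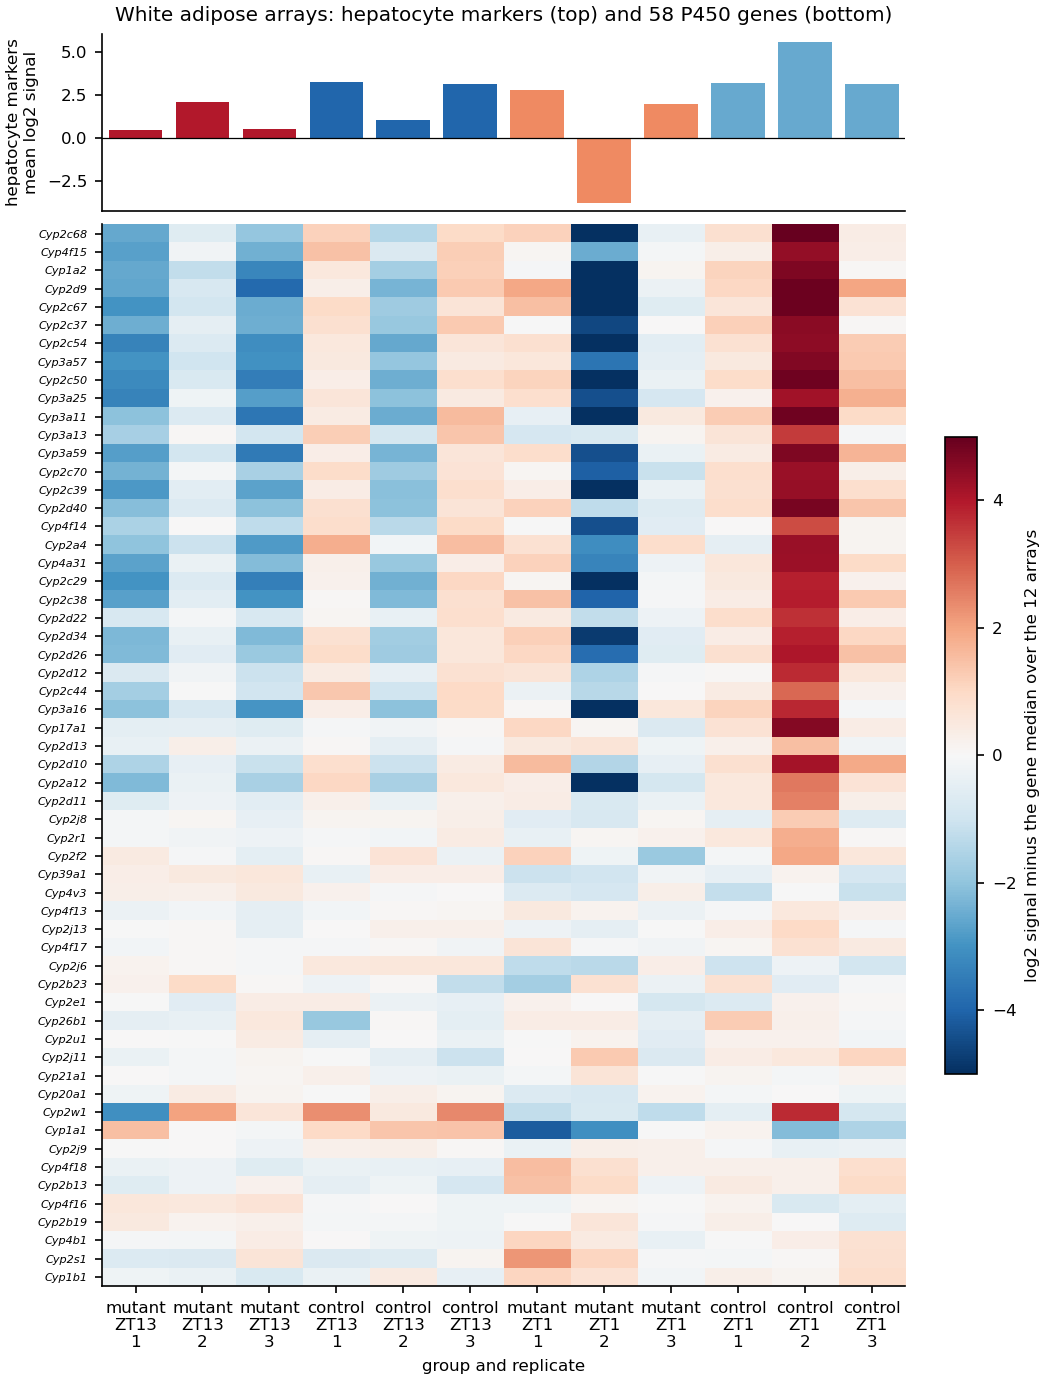
Bars (top) give the mean log2 level of 13 hepatocyte markers in each of the 12 white adipose samples, and the colour map (below) gives each of 58 P450 genes relative to its own median over those samples, in log2 units. The mutant stands left of the control at each time. The second ZT1 control, at 5.57, is the column with the highest values, and the second ZT1 mutant, at -3.72, the column with the lowest.

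Medians of the adipose difference varied by subfamily. At ZT13 the median was -2.21 for 2 Cyp2a genes, -1.58 for 2 Cyp1a genes, -1.88 for 10 Cyp2c genes, -1.85 for 6 Cyp3a genes and -1.07 for 9 Cyp2d genes, against -0.29 for 5 Cyp2j genes, -0.17 for 6 Cyp4f genes and 0.45 for 3 Cyp2b genes. At ZT1 the same medians were -2.85, -2.63, -3.87, -3.43 and -2.38, against -0.45, -0.20 and 0.16. No gene of these subfamilies passed limma's test at either time.

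The adipose genes nearest to the threshold are given as values. Cyp4f16 read 1.31, 1.27 and 1.41 in mutant adipose at ZT13, against 0.68, 0.74 and 0.51 in control adipose, a difference of 0.68 ± 0.238 (adjusted p = 0.819 by limma). Its groups did not overlap, as for 9 of 58 members, against 25.3% of all genes. Cyp2a4 read -3.44, -2.50 and -4.27, against 0.40, -1.56 and 0.11, a difference of -3.05 ± 1.28 (adjusted p = 0.962). Cyp4f15 differed by -2.41, Cyp2c44 by -1.33, Cyp2b19 by 0.45 and Cyp2u1 by 0.38. At ZT1 the lowest unadjusted p belonged to Cyp2c70 (-3.52 ± 1.25, adjusted p = 0.55), Cyp2d26 (-3.22 ± 1.19) and Cyp3a57 (-3.32 ± 1.24) among lower means, and to Cyp2s1 (0.81 ± 0.55, adjusted p = 0.826), Cyp4f18 (0.43) and Cyp2j9 (0.30) among higher means.

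Between the times, control adipose had 1 gene past the threshold, 1.72% of members against 15.1% of all genes (6.22% higher and 8.9% lower), and 14 of 58 members had groups without overlap, against 50.4% of all genes. Cyp2j6 read 1.10, 1.15 and 1.14 at ZT13, against -0.47, 0.31 and -0.36 at ZT1, a difference of 1.31 ± 0.393 (adjusted p = 0.0466 by limma) with no overlap. Its call ended without any 1 of 9 of the 12 adipose samples, with 1.21 (adjusted p = 0.136) without the third ZT1 control at the highest. The ZT13 controls lay on slide 2 and the ZT1 controls on slide 1, so slide and time cannot be told apart. The call was lost with the replicate block and with slide as a random term (0.67, adjusted p = 0.454), and the sign turned with slide as a fixed term (-0.34, adjusted p = 0.808). In mutant adipose no member passed limma's test, against 1.98% of all genes (0.411% higher and 1.57% lower), 4 of 58 had groups without overlap, against 26.8%, and 7 had an unadjusted p under 0.05, against 6284 of 23368 genes. The nearest were Cyp4f18 at -1.26 ± 0.301 (adjusted p = 0.0587) and Cyp39a1 at 1.18 ± 0.324 (adjusted p = 0.0823). Leaving out the third ZT1 mutant, which lay on another slide than the other ZT1 mutants, gave 10 calls. The difference between the daily changes called none by limma, against 0.124% of all genes (0.0514% positive and 0.0727% negative), with none at an unadjusted p under 0.05.

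Most P450 genes differed between the tissues. Over the 12 samples of each tissue, 58 of 70 tested members were higher in liver and 8 lower, 94.3% of members against 75.4% of all 24314 genes (41.9% higher and 33.5% lower), with a median difference of 4.84 for members and 0.14 for all genes. In 46 genes every liver value lay above every adipose value, and 28 genes differed by more than 6 log2 units. All 11 Cyp2c, 9 Cyp2d and 7 Cyp3a genes were higher in liver, with medians of 7.58, 6.26 and 7.44. The largest fitted differences were those of Cyp4a32 (8.32 ± 0.481), Cyp2c55 (7.86 ± 0.237, adjusted p = 1.91e-16 by limma), Cyp2c68 (7.71 ± 0.672) and Cyp4f15 (7.66 ± 0.452). Of the 12 adipose arrays 2 read Cyp4a32 above background, 1 read Cyp2c55, 11 read Cyp2c68 and 8 read Cyp4f15, so the sizes and the order of these genes rest in part on background readings. Hepatocyte transcripts in the adipose samples, given above, enter these differences.

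The 8 genes lower in liver than in adipose included enzymes known from tissues outside the liver. Cyp1b1, an oestrogen and xenobiotic hydroxylase, ran between -5.47 and -2.91 in liver and between -0.37 and 1.47 in adipose, with means of -4.18 ± 0.705 and 0.50 ± 0.572 (SD, n = 12 each). Of the 12 liver arrays 6 read Cyp1b1 above background. The ranges did not meet, and the fitted difference was -4.68 ± 0.232 (adjusted p = 3.1e-13 by limma). Cyp2s1, an extrahepatic enzyme, ran between -3.88 and -1.69 in liver and between 0.19 and 3.13 in adipose, a difference of -3.86 ± 0.266. Smaller were Cyp4b1 (-1.28 ± 0.15), Cyp2b19 (-1.16 ± 0.122), Cyp4f16 (-1.07), Cyp2b13 (-0.91), Cyp4f18 (-0.71) and Cyp2j9 (-0.37). Cyp1a1 (-0.23), Cyp4f39 (0.11), Cyp20a1 (-0.03) and Cyp2w1 (-0.06) did not pass. Cyp4f39 was above background on 3 of 12 liver and 4 of 12 adipose arrays, and Cyp2w1 on 5 and 6. Their differences thus rest largely on background readings and do not show equal levels. The ethanol-oxidising Cyp2e1 had a small difference of 1.32, at 8.43 ± 0.425 in liver and 7.11 ± 0.432 in adipose.

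Cyp2g1 was above background on no adipose array and was at least 13.8-fold higher in liver. Likewise Cyp2b9 was at least 11.3-fold higher in liver. Cyp46a1 and Cyp3a44 were also above background on no adipose array. Of the 12 liver arrays, 6 read Cyp46a1 and 5 read Cyp3a44 above background. Their liver means thus rest in part on background readings, and no bound is given. The ZT13 genotype difference of a gene was then tested between the tissues. Limma called none of 70 members, against 0.214% of all genes (0.107% in each direction), with 2 members at an unadjusted p under 0.05. Cyp2g1 had the lowest adjusted p (0.0807), and its adipose values are background readings, so no size is given.

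**Figure D5:**
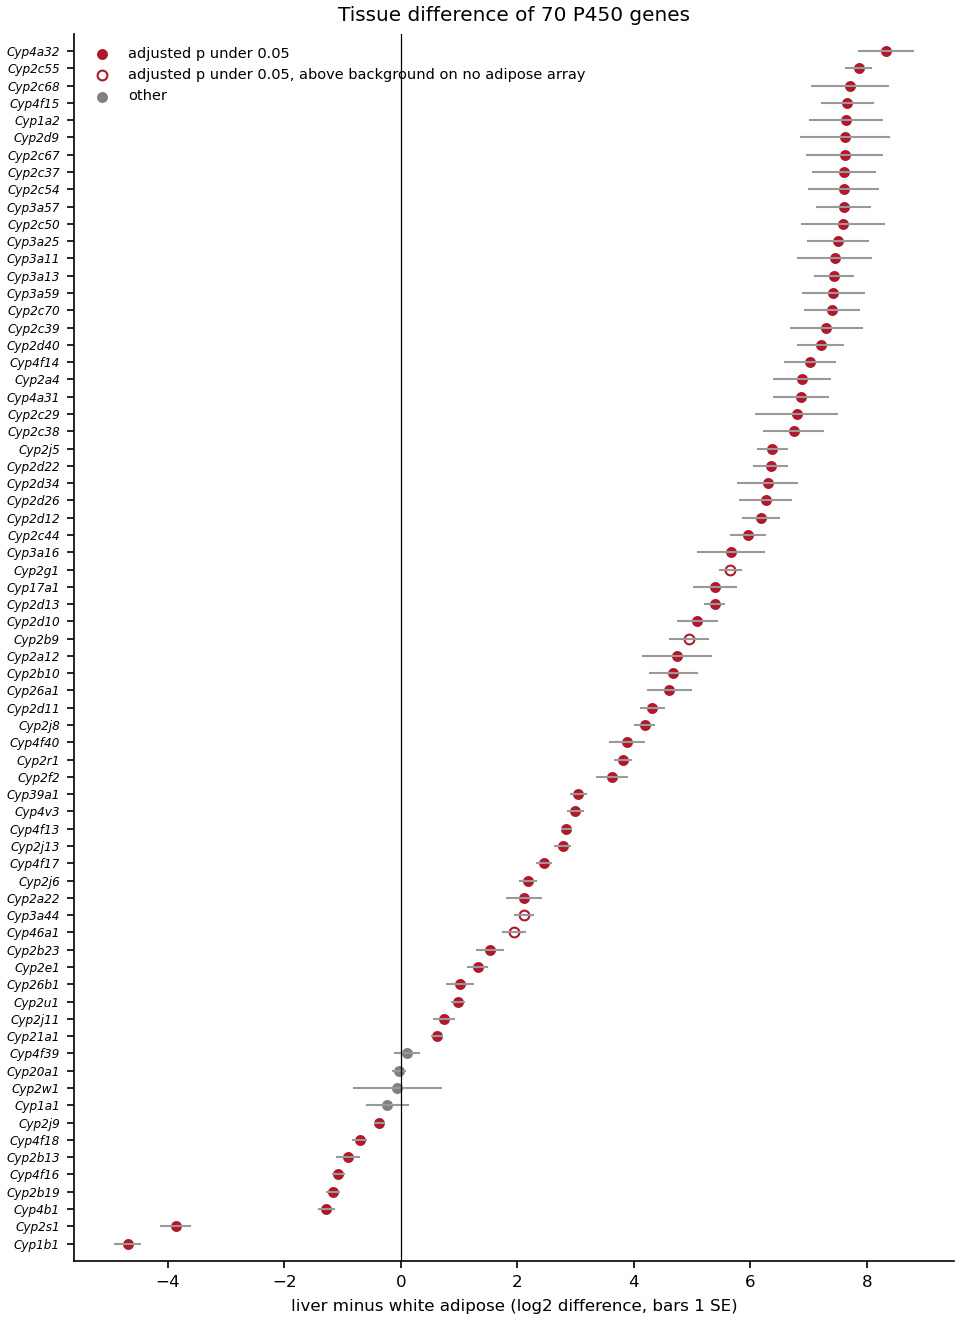
Liver minus white adipose difference on the log2 scale for 70 P450 genes, ordered by size, with bars of 1 SE over 12 arrays per tissue. Open points are genes above background on no adipose array. Most genes lie above 0, with Cyp4a32 at 8.32 the highest and Cyp1b1 at -4.68 the lowest.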

How the data were processed

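Cy3-labelled RNA was hybridised to 1-colour Agilent arrays of 62976 spots. The authors deposited intensity values from Agilent Feature Extraction 10.7.3.1, per the file headers, and a log2 table, in which each array's deposited log2 values equal log2 of its processed intensity minus a constant. Probe positions are those of mm9, per the file headers.

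From the processed intensity, control spots and outlier-flagged spots were removed, spots of a probe averaged, log2 taken and each array's 75th percentile subtracted. The brightest probe over the 24 arrays stood for a gene. A gene was tested if well above background on all 3 arrays of 1 or more groups in a tissue. Group means were fitted with limma 3.58.1 (R 4.3.3), per tissue or over 24 arrays for tissue contrasts, with Benjamini-Hochberg adjustment over all genes tested and a threshold of 0.05. The fit was tested on simulated data. Figures used matplotlib 3.10.9, and probe sequences were compared with blastn 2.17.0. Of the 82 members 81 matched RefSeq by accession, and Cyp2c44 is named Cyp2c23 there.

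Named genes were, per genotype contrast, the 8 largest past the threshold without overlap per direction, or up to 3 by lowest p, the 4 largest in other contrasts, and members of role lists. Members and lists were chosen with earlier results of these data known. Alternatives were normexp (offset 50), quantile scaling, the deposited table, no filter on dim probes, slide or replicate number as a block, and leaving out each array. No pairing of samples by replicate number was found, which with 3 samples per group cannot exclude a shared animal or batch.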

Additional observations from a re-analysis of the deposited data

Results flagged for a closer look

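In liver, the daily change (ZT13 minus ZT1) differed between mutant and control for 11 P450 genes by the test of the difference itself. That is 15.9% of 69 members, against 31.2% of all genes. The values given are the mutant change minus the control change on the log2 scale. They were -4.46 for Cyp2g1, -1.70 for Cyp1a1, -1.37 for Cyp2a4, -1.37 for Cyp4f15, -1.28 for Cyp3a13, -1.25 for Cyp2j6 and -0.92 for Cyp4v3. Positive values were 2.64 for Cyp4f39, 2.16 for Cyp2j11, 1.62 for Cyp3a44 and 0.82 for Cyp2j5. Limma's adjusted p was 2.84e-04 for Cyp2g1 and 0.045 for Cyp2j5, the lowest and the highest of the 11. The control ZT1 arrays all lay on a slide of their own among the liver arrays, and with slide as a fixed term 1 of the 11, Cyp2g1, passed. That fit took in the arrays of both tissues, which without slide already gave fewer than 11 calls. The step between slides 1 and 2 under that term came from adipose arrays alone. Cyp2g1 was above background on none of those, so its passing cannot decide the part of slide. With that term the sign turned for Cyp1a1 (2.13), Cyp2a4 (0.53) and Cyp2j5 (-0.68), and with slide as a random term for Cyp1a1 (0.17). The Cyp4f39 and Cyp3a44 values rest on background readings in 3 of the 4 liver groups, where at most 1 of 3 arrays was above background.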

How the results depend on the processing

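Counts of members called are compared with those of the report. In liver at ZT1 (23), the fit to 24 arrays without a block gave 7, slide as a fixed term 0 and as a random term 0. For mutant liver between the times (2), the count was 1 with normexp, quantile scaling, the deposited table, the 24-array fit and the replicate block, and 0 with no dim filter and with slide as a fixed or random term. For control liver between the times (20) it was 10 with the 24-array fit, 0 with slide fixed and 1 with slide random. The liver daily change difference (11) gave 18 with normexp, 6 with no dim filter, 4 with the 24-array fit, 1 with slide fixed and 2 with slide random. Mutant adipose between the times (0) gave 2 with normexp, 1 with no dim filter and 4 with the 24-array fit. Control adipose between the times (1) gave 4 with normexp, 3 with no dim filter, 14 with the 24-array fit, 0 with slide fixed or random, 0 with the replicate block and 2 without the second ZT1 sample of each genotype. The ZT13 genotype difference between tissues (0) gave 1 with normexp and 1 without those 2 samples. The cause was not tested. The replicate block gave 21 in liver at ZT1, 2 at ZT13 and 66 between tissues, and moved no count other than those given above by over 1.5 times.

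Leaving out each array in turn gave 2 to 3 in liver at ZT13, 16 to 27 in liver at ZT1, 0 to 2 in mutant liver and 15 to 29 in control liver between the times, and 6 to 21 for the liver daily change difference. In adipose it gave 0 to 0 for the genotype at ZT13, at ZT1 and for the daily change difference, 0 to 10 in mutant and 0 to 6 in control adipose between the times. Between tissues it gave 66 to 66, and 0 to 1 for the genotype difference between tissues.

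Of 1402 alternatives over 61 named gene results, 1208 kept direction and side of the threshold, 176 kept direction and lost the call, 2 gained it and 16 turned the sign. With slide as a fixed term the sign turned in liver at ZT1 for Cyp1a1 (-1.67), Cyp2a22 (2.18), Cyp2j6 (-0.57), Cyp4b1 (0.43), Cyp4f15 (-0.055) and Cyp4v3 (-0.30), and in adipose at ZT13 for Cyp2b19 (-0.021) and Cyp2u1 (-0.24). It also turned between the times in control liver for Cyp1a1 (-0.96) and Cyp26a1 (0.27), in control adipose for Cyp2j6 (-0.34), and in the liver daily change difference for Cyp1a1 (2.13), Cyp2a4 (0.53) and Cyp2j5 (-0.68). With slide as a random term it turned for Cyp2a22 in liver at ZT1 (0.46) and for Cyp1a1 in the daily change difference (0.17). The slide steps rest on few arrays, 1 against 2 in each case. As a fixed term, the step between slides 1 and 2 came from the adipose mutant ZT1 arrays alone. That between slides 2 and 3 came from the liver control ZT13 arrays. Liver values at ZT1 with slide in the fit thus lean on adipose arrays. The 3 arrays per group limit the precision throughout.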
